A study of Mus musculus with 10 samples.

Results

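The genes described here are a list of 36 microglial genes, chosen by name, of which 35 were found among the 12575 genes of the deposited expression table. Spi1, which encodes the transcription factor PU.1, was the listed gene not found in it and was not analysed here. All 35 passed the filter on low values, as did 12573 genes of the table. By their known roles, 16 were grouped as homeostatic genes, 10 as activation genes and 9 as pan-microglial genes that mark the cell in either state.

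Bulk RNA was sequenced from cerebral cortex of 5 BMAL1 aKO mice and 5 Cre- littermates, all C57BL/6 and labelled as 4 months old. BMAL1 aKO mice carry Aldh1l1-CreERT2 and Bmal1 fl/fl, so that Cre under the Aldh1l1 promoter of astrocytes deletes Bmal1 after tamoxifen, while Cre- mice carry Bmal1 fl/fl without Cre. All mice received tamoxifen according to the study's methods. The study's text gives fewer BMAL1 aKO mice and an older age than the labels, and its text does not say which library was left out, so all 5 labelled libraries were used and each was left out in turn. Cre is not driven in microglia in this model, and any difference in microglial RNA was measured in whole tissue, where fewer microglia and less RNA per microglial cell cannot be told apart. Nothing in the labels pairs libraries with litters or days.

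Microglia are the resident macrophages of the brain. In healthy tissue they express a homeostatic set of receptors, such as the ADP receptor P2ry12 and the fractalkine receptor Cx3cr1, which is kept up by TGF-beta and CSF1R signalling. When they respond to damage or plaques, TREM2 and its adaptor DAP12 (Tyrobp) carry a switch to phagocytic, lysosomal and complement genes, while homeostatic genes are turned down. Measuring both sets in the same tissue therefore asks whether their levels move together or apart, and cannot count the cells.

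The libraries held 23127338 to 47964460 total reads in BMAL1 aKO and 21844770 to 48295715 in Cre-, and a microglial gene had 55 to 10871 reads in a library. Values are CPM, reads of a gene scaled by the total reads of its library. Arntl, the symbol of Bmal1, was at 31.1 to 38.8 CPM in BMAL1 aKO and 31.9 to 37.1 CPM in Cre- libraries, and it does not test the labels, because neurons and other cells keep the gene. Aldh1l1, whose promoter drives Cre, was at 32.8 to 44.9 CPM in BMAL1 aKO and 30.3 to 56.7 CPM in Cre- (log2 fold change -0.04; limma, adjusted p = 0.865). Fabp7, a radial glia and astrocyte gene chosen after its values were seen, was at 90.8 to 237 CPM in BMAL1 aKO and 9.94 to 19.9 CPM in Cre- libraries. By Xist, at 986 to 1089 CPM in BMAL1 aKO 1 and 4 and Cre- 2 and 3 and no higher than 1.42 CPM elsewhere, each group held both sexes. The defining microglial genes P2ry12, Tmem119, Cx3cr1 and Csf1r were detected in all 10 libraries.

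Few microglial genes were called between BMAL1 aKO and Cre- cortex. With library weights, 1 of the 35 genes was called at an adjusted p of 0.1 or less, Sparc, with a log2 fold change of 0.47. Over all genes, 0.286% were called higher (36 of 12573) and 0.0477% lower (6). No microglial gene was called lower, and none was lower at an unadjusted p under 0.05 with weights, without weights or with voomWithQualityWeights, against 10.0% of all genes that were lower at that limit with weights (limma). At an unadjusted p under 0.05 with weights, 7 of the 35 were higher (Sparc, Rnase4, Fcrls, Aif1, Tyrobp, Gpr34 and Ly86), against 6.82% of all genes. These unadjusted calls are given as counts and none but Sparc passed the adjusted test.

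Library weights decided that count. Without weights, none of the 35 was called, Aif1 was the only one with an unadjusted p under 0.05 (2.51% of all genes were higher at that limit), and 0.0318% of all genes were called (4 of 12573, limma). With voomWithQualityWeights, Sparc was again the 1 gene called, against 0.231% of all genes. The groups overlapped for all 35 microglial genes, while they did not overlap for 1% of all genes. The smallest two-sided exact permutation p among the 35 was 0.0159, for Aif1, where the design allows no p under 0.00794, and adjusted over all genes tested no exact p of the 35 was under 0.839.

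**Figure D1:**
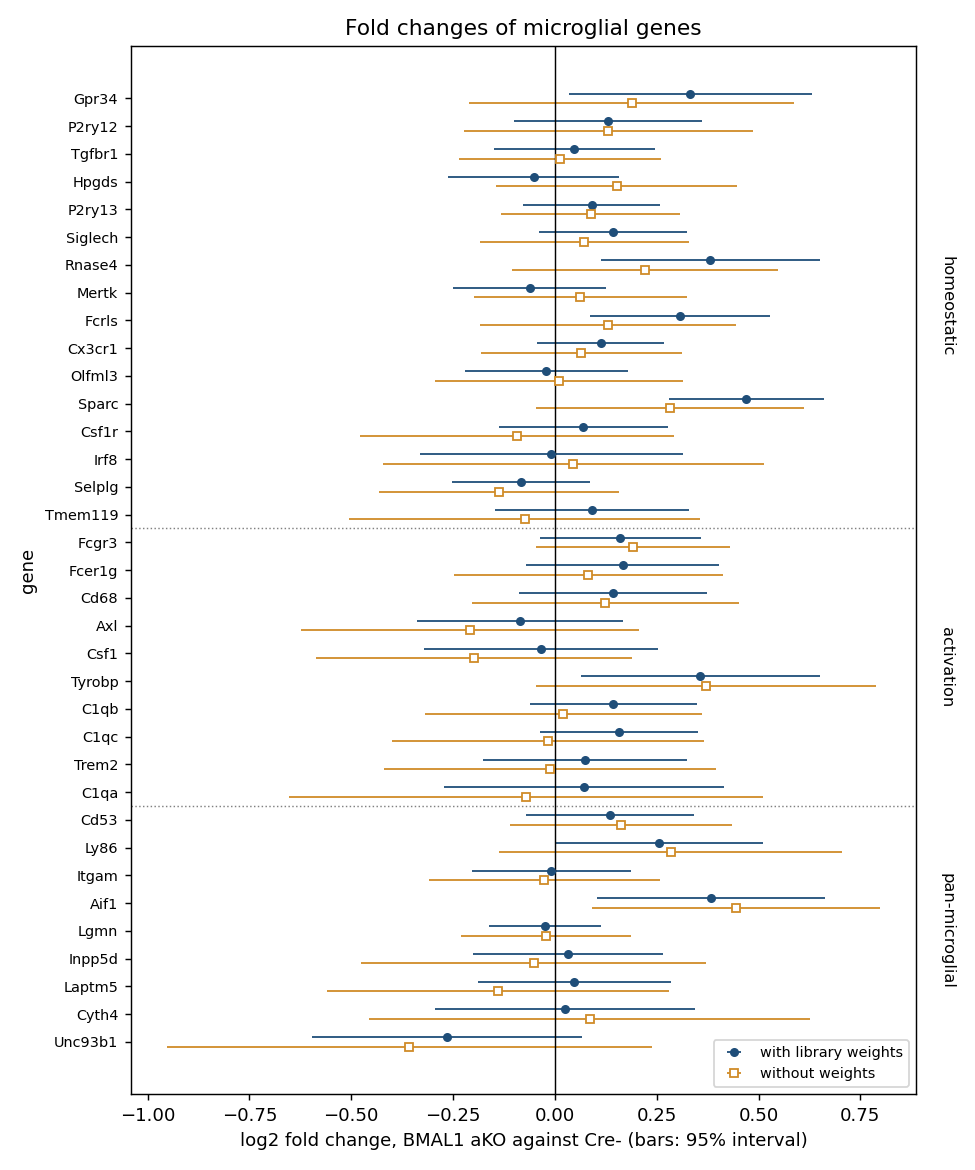
Log2 fold change of each of the 35 microglial genes, BMAL1 aKO against Cre-, with library weights (filled circles) and without (open squares); bars are 95% intervals from limma, genes are grouped as homeostatic, activation and pan-microglial and ordered by transcript GC. Sparc is farthest to the right with weights at 0.47, Unc93b1 farthest to the left at -0.26, and intervals without weights are wider.

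The weights were far from equal, which matters for reading every weighted value. Cre- 1 had a weight of 7.19 and held 72.9% of the weight of its group, Cre- 5 held 15.4%, and Cre- 3 held 1.83%. Among BMAL1 aKO libraries the shares ran from 11.6% for BMAL1 aKO 1 to 29.1% for BMAL1 aKO 3. A weighted fold change is therefore close to a comparison of the BMAL1 aKO libraries with Cre- 1. Weights were estimated anew in each fit without 1 library. In the fits without Cre- 1 or Cre- 5 the weights did not converge, which limits every value given below for those fits.

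Homeostatic and activation genes had similar small fold changes. With weights, the median log2 fold change was 0.09 over the 16 homeostatic genes (11 higher and 5 lower in BMAL1 aKO) and 0.14 over the 10 activation genes (8 higher and 2 lower), beside -0.04 over all genes tested, of which 38.4% were higher. Without weights these medians were 0.07 for homeostatic genes (13 higher and 3 lower), 0.00417 for activation genes (5 higher and 5 lower) and -0.05 over all genes. The pan-microglial genes had a median of 0.03 with weights and -0.02 without. These medians are descriptions and none was tested.

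The order of the 2 classes thus turned round with the weights. Activation genes had the higher median with weights and homeostatic genes the higher one without. With TMM scaling, which moved the median of all genes by less than 0.1 to -0.002, 30 of the 35 genes were above 0 and 5 below, with medians of 0.13 for homeostatic and 0.18 for activation genes. The split of all genes moved as well, to 49.3% higher.

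Summed over the 35 genes, the level was 848, 1069, 919, 930 and 883 CPM in BMAL1 aKO 1 to 5, against 837, 813, 1165, 911 and 805 CPM in Cre- 1 to 5. Cre- 3 was the highest library, Cre- 4 lay among the BMAL1 aKO libraries, and Cre- 1, 2 and 5 were below all of them. Summed homeostatic CPM were 515 to 675 in BMAL1 aKO and 499 to 683 in Cre-. Summed activation CPM were 149 to 203 in BMAL1 aKO and 141 to 248 in Cre-. The mean log2 deviation of homeostatic genes minus that of activation genes was -0.02 to 0.06 in BMAL1 aKO and -0.24 to 0.19 in Cre- libraries, so that the whole BMAL1 aKO range lay inside the Cre- range.

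**Figure D2:**
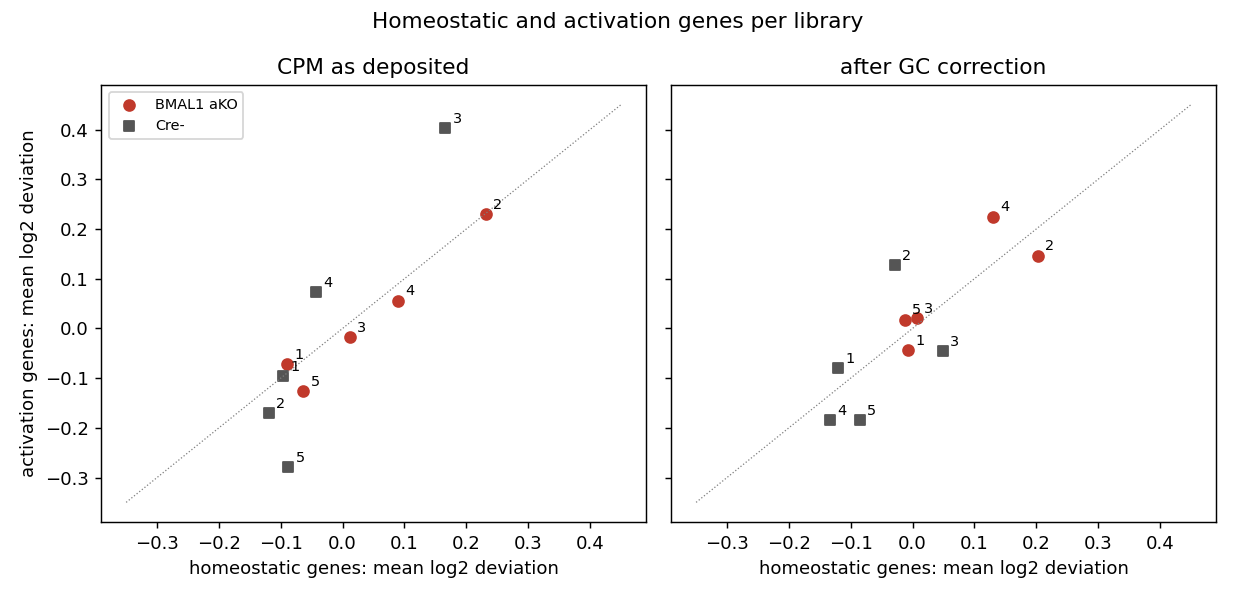
Mean deviation of 10 activation genes (y) against that of 16 homeostatic genes (x), each as log2(CPM + 0.5) minus the gene's mean over 10 libraries; circles are BMAL1 aKO and squares Cre- libraries, numbered by replicate, and the dotted line marks equal deviation. On the left, with CPM as deposited, Cre- 3 (0.17, 0.40) and Cre- 5 (-0.09, -0.28) are farthest from the line; on the right, after correction for transcript GC, differences between the 2 means run from -0.16 to 0.10.

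Among the purinergic and homeostatic surface receptors, 8 genes were measured and none was called. Fcrls, an Fc receptor-like protein that marks mouse microglia, was at 16.9, 20.8, 14.8, 19.7 and 16.6 CPM in BMAL1 aKO 1 to 5, against 13.3, 15.1, 22.0, 16.5 and 14.6 CPM in Cre- 1 to 5. Its highest value was in Cre- 3 and its lowest in Cre- 1, the library with the most weight. The log2 fold change was 0.31 (SE 0.10; limma, adjusted p = 0.189) with weights, 0.13 (limma, adjusted p = 0.806) without, and 0.16 with weights but without Cre- 1.

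Gpr34, a receptor for lysophosphatidylserine, was at 8.61, 11, 9.34, 11.9 and 8.96 CPM in BMAL1 aKO 1 to 5, against 7.16, 13.1, 6.93, 7.04 and 10.2 CPM in Cre- 1 to 5. The Cre- libraries held both its highest and its lowest values. On the log2 scale Gpr34 differed by 0.33 (SE 0.14; limma, adjusted p = 0.258) with weights and 0.19 (limma, adjusted p = 0.803) without. The weighted value was 0.046 without Cre- 1 and 0.19 without Cre- 4, with weights estimated anew in each fit. Its size thus changed with the libraries used, and the part of any 1 library was not separated from that of the weights.

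P2ry12, which senses ADP released by damaged cells and steers microglial processes, was at 31.0, 49.9, 46.0, 49.7 and 42.9 CPM in BMAL1 aKO 1 to 5, against 39.8, 48.6, 31.5, 33.1 and 47.6 CPM in Cre- 1 to 5. The groups ran over nearly the same range, and the log2 fold change was 0.13 (95% interval -0.10 to 0.36, limma). Its neighbour on the chromosome and relative P2ry13 varied least of all 35 genes, with a highest library 1.31 times its lowest, and averaged 11 ± 0.926 CPM in BMAL1 aKO and 10.3 ± 0.734 CPM in Cre- (SD, n = 5 each).

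Cx3cr1, the receptor for neuronal fractalkine, given in full by a choice made after its values were seen, was at 40.6, 53.4, 44.1, 44.1 and 45.4 CPM in BMAL1 aKO 1 to 5, against 42.3, 39.9, 55.0, 42.9 and 38.3 CPM in Cre- 1 to 5. One library in each group, BMAL1 aKO 2 and Cre- 3, was above the rest, and the log2 fold change was 0.11 (SE 0.07; limma, adjusted p = 0.435). Siglech, a sialic acid receptor, had a log2 fold change of 0.14 and Selplg, a selectin ligand, one of -0.08, and neither was called.

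In the CSF1R axis, Csf1r, the receptor that microglia need to survive, was at 59.7, 90.7, 76, 71.0 and 67.8 CPM in BMAL1 aKO 1 to 5, against 68.7, 59.7, 118, 85.1 and 66.7 CPM in Cre- 1 to 5. The libraries of both groups lay between 59.7 and 90.7 CPM, except Cre- 3. Csf1r differed by 0.07 on the log2 scale (95% interval -0.14 to 0.28, limma) with weights and -0.09 without. The library kit does not mark strand, and Csf1r shares 873 exonic bases with Hmgxb3 on the opposite strand, so reads there cannot be assigned.

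Csf1, a ligand of this receptor that astrocytes and other brain cells also make, was at 15.1, 17.8, 17.9, 15.0 and 10.9 CPM in BMAL1 aKO 1 to 5, against 14.8, 13.2, 21, 23.0 and 17 CPM in Cre- 1 to 5. BMAL1 aKO 5 was the lowest library and Cre- 4 the highest. The fold change on the log2 scale was -0.03 with weights and -0.20 without, and neither was called (adjusted p = 0.915 and 0.803, limma).

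The 3 genes of complement C1q encode the chains of 1 protein, which starts the classical complement cascade and tags synapses for removal by microglia. C1qb was at 25.5, 35.5, 30.2, 30.4 and 27.5 CPM in BMAL1 aKO 1 to 5, against 27.3, 25.4, 41.7, 32.1 and 22.9 CPM in Cre- 1 to 5. C1qc was at 20.7, 27.3, 22.6, 25.0 and 24.0 CPM in BMAL1 aKO 1 to 5, against 21.2, 21, 39.7, 23.2 and 19.6 CPM in Cre- 1 to 5. For both chains Cre- 3 stood above all other libraries and Cre- 5 was lowest.

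C1qa was at 15.7 to 28.5 CPM in BMAL1 aKO and 15.5 to 40.6 CPM in Cre- libraries. The log2 fold changes with weights were 0.07 for C1qa, 0.14 for C1qb and 0.16 for C1qc, and without weights -0.07, 0.02 and -0.02. None was called with or without weights. The 3 genes lie beside each other on chromosome 4, yet their ratios differed between libraries, with C1qa at 0.572 to 1.07 times C1qb in BMAL1 aKO and 0.610 to 1.02 times in Cre-.

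Of the TREM2, DAP12 and Fc receptor genes, Tyrobp, the DAP12 adaptor of TREM2, was at 8.59, 9.11, 8.80, 13.6 and 10.4 CPM in BMAL1 aKO 1 to 5, against 8.01, 11.4, 7.40, 5.32 and 6.89 CPM in Cre- 1 to 5. All 5 BMAL1 aKO libraries were above the Cre- median, and Cre- 2 was above 4 of them. The log2 fold change was 0.36 (SE 0.14; limma, adjusted p = 0.227) with weights and 0.37 (limma, adjusted p = 0.803) without, and the two-sided exact permutation p was 0.119. With 1 library left out, the weighted value ran from 0.21 without BMAL1 aKO 4 to 0.48 without Cre- 1.

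Fcgr3, a low-affinity IgG receptor with close paralogs, was at 9.47, 12.1, 11, 12.3 and 10.2 CPM in BMAL1 aKO 1 to 5, against 10.2, 9.38, 10.0, 9.77 and 8.40 CPM in Cre- 1 to 5. The values of BMAL1 aKO 2, 3, 4 and 5 lay above every Cre- library, BMAL1 aKO 5 by less than the last digit printed. Its log2 fold change was 0.16 (limma, adjusted p = 0.379) with all libraries and 0.30 (limma, adjusted p = 0.925) without Cre- 1, and reads of near-identical copies may have been lost or shared.

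Inpp5d, the phosphatase SHIP1 that restrains these receptors, was at 11.8, 12.2, 12.5, 14.3 and 11.1 CPM in BMAL1 aKO 1 to 5, against 12.5, 8.88, 21.2, 13.9 and 10.5 CPM in Cre- 1 to 5. The BMAL1 aKO libraries were close together and the Cre- libraries spread on both sides of them. The difference for Inpp5d was 0.03 on the log2 scale (95% interval -0.20 to 0.27, limma). Trem2 itself, chosen after its values were seen, was at 6.40 to 8.30 CPM in BMAL1 aKO and 5.32 to 11.7 CPM in Cre-, with a log2 fold change of 0.07 with weights and -0.01 without.

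Among the integrin, tetraspanin and cytoskeletal genes, Aif1 (chromosome 17, 35170991 to 35176068, minus strand, GRCm38), which encodes IBA1, the protein used to stain microglia, was at 4.00, 4.01, 3.70, 5.40 and 5.55 CPM in BMAL1 aKO 1 to 5, against 3.33, 3.75, 2.65, 2.57 and 3.64 CPM in Cre- 1 to 5. Only Cre- 2 was above any BMAL1 aKO library, and it was above BMAL1 aKO 3 alone. The log2 fold change was 0.38 (SE 0.13; limma, adjusted p = 0.192) with weights and 0.45 (limma, adjusted p = 0.803) without, the highest of the 35 without weights.

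The call of Aif1 depended on the choice of libraries. Without BMAL1 aKO 3, its log2 fold change was 0.52 (limma, adjusted p = 0.0701) and Fcrls reached 0.39 (limma, adjusted p = 0.0753), so that 3 of 35 genes, with Sparc, were called higher. In that fit 2.70% of all genes were called higher (339 of 12572), against 36 with all libraries. Beside this, BMAL1 aKO 3 had the highest summed haemoglobin level of all libraries, 103 CPM over Hba-a1, Hba-a2 and Hbb-bs, against 5.71 to 41.7 CPM in the other BMAL1 aKO and 2.88 to 30.5 CPM in Cre- libraries, and the part of blood in the result was not tested.

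Cd53, a tetraspanin of white blood cells, was at 4.92, 5.54, 5.23, 5.45 and 5.84 CPM in BMAL1 aKO 1 to 5, against 4.97, 5.86, 4.61, 3.93 and 4.64 CPM in Cre- 1 to 5. Itgam, the CD11b integrin chain of complement receptor 3, was at 22.4, 28.1, 23.1, 19.8 and 20.4 CPM in BMAL1 aKO 1 to 5, against 22.9, 21.9, 29.7, 21.7 and 19.8 CPM in Cre- 1 to 5. The groups of both genes overlapped, with log2 fold changes of 0.14 for Cd53 and -0.01 for Itgam with weights. Itgam shares 3450 exonic bases with the gene model Gm49368 on the same strand, and its level is uncertain for that reason. Cyth4, a guanine nucleotide exchange factor, had a log2 fold change of 0.02.

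**Figure D3:**
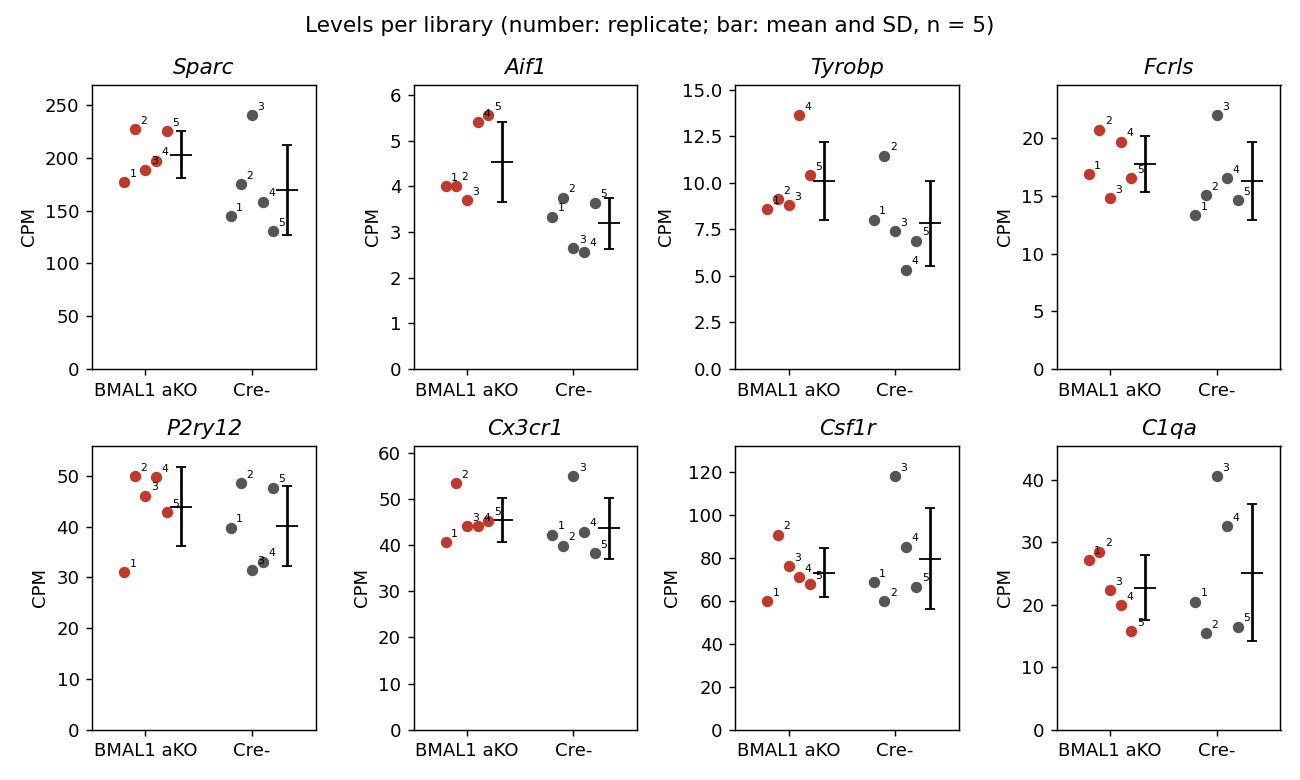
CPM of 8 microglial genes in each BMAL1 aKO library (red, left) and each Cre- library (grey, right), with replicate numbers; black bars are the mean and SD of 5 libraries. Aif1 and Tyrobp sit higher in most BMAL1 aKO libraries, while Cre- 3 is the highest library for Sparc, Fcrls, Cx3cr1, Csf1r and C1qa, and the groups overlap in every panel.

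Of the phagocytic, lysosomal and endosomal genes, Ly86, which encodes MD-1 and pairs with the Toll-like receptor relative RP105, was at 7.94, 9.66, 8.37, 10.9 and 9.82 CPM in BMAL1 aKO 1 to 5, against 7.74, 12.3, 5.58, 5.84 and 7.69 CPM in Cre- 1 to 5. Every BMAL1 aKO library was above every Cre- library other than Cre- 2. Ly86 differed by 0.26 on the log2 scale (SE 0.12; limma, adjusted p = 0.296).

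Unc93b1, a chaperone that carries Toll-like receptors to endosomes, was at 8.84, 11.9, 9.2, 6.62 and 7.52 CPM in BMAL1 aKO 1 to 5, against 10.5, 6.41, 21.4, 13.8 and 8.87 CPM in Cre- 1 to 5. It varied most of all 35 genes, with Cre- 3 at 3.34 times Cre- 2. Its log2 fold change of -0.26 (SE 0.15; limma, adjusted p = 0.388) was the lowest of the list.

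Lgmn, the lysosomal protease legumain, was at 79.1, 78.8, 80.4, 75.1 and 68.9 CPM in BMAL1 aKO 1 to 5, against 78.1, 65.3, 91.5, 78.2 and 76.6 CPM in Cre- 1 to 5. The groups were centred on the same level, with a log2 fold change of -0.02 (95% interval -0.16 to 0.11, limma). Cd68, a lysosomal glycoprotein used as a stain of phagocytic microglia, was at 7.31 to 10.1 CPM in BMAL1 aKO and 6.11 to 10.2 CPM in Cre-, and Laptm5, a lysosomal membrane protein, was at 22.0 to 31.5 CPM in BMAL1 aKO and 20.5 to 45.7 CPM in Cre-. Neither was called.

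Among the secreted proteins and enzymes, Sparc rose in the weighted test. Sparc (chromosome 11, 55394500 to 55423183, minus strand, GRCm38) encodes a matrix-binding protein that microglia express strongly and that astrocytes and endothelial cells make too, so that its level in whole cortex is not microglial alone. It was at 177, 227, 189, 197 and 225 CPM in BMAL1 aKO 1 to 5, against 145, 175, 240, 158 and 130 CPM in Cre- 1 to 5. All BMAL1 aKO libraries were above 4 of the Cre- libraries, and Cre- 3 was above all of them.

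Sparc averaged 203 ± 22.4 CPM in BMAL1 aKO and 170 ± 42.7 CPM in Cre- (SD, n = 5 each), with a log2 fold change of 0.47 (SE 0.09; limma, adjusted p = 0.0590). Without weights the log2 fold change was 0.28 (SE 0.15; limma, adjusted p = 0.803), and the two-sided exact permutation p was 0.127. The call was lost without Cre- 1 (adjusted p = 0.868), Cre- 4 (0.161), Cre- 5 (0.511), BMAL1 aKO 4 (0.196) or BMAL1 aKO 5 (0.187), and with Xist as a covariate (limma, adjusted p = 0.140). Its log2 fold change stayed between 0.37 and 0.51 when any 1 library was left out. In the same fit the astrocyte gap junction gene Gja1 was the only one called of 15 astrocyte markers, with a log2 fold change of 0.44 (limma, adjusted p = 0.0274). The summed level of these markers was 8984 to 10851 CPM in BMAL1 aKO and 8132 to 9685 CPM in Cre-. Much of that sum was Slc1a2 alone, at 4885 to 5856 CPM in BMAL1 aKO and 3622 to 5214 CPM in Cre-. The part of astrocyte RNA in the level of Sparc was not tested.

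Rnase4, a ribonuclease, was at 9.40, 10.2, 9.98, 9.17 and 6.27 CPM in BMAL1 aKO 1 to 5, against 6.34, 7.51, 9.2, 7.51 and 7.47 CPM in Cre- 1 to 5. BMAL1 aKO 5 was below every other library, BMAL1 aKO 1, 2 and 3 were above every Cre- library, and BMAL1 aKO 4 was above all of them except Cre- 3. The log2 fold change of Rnase4 was 0.38 (SE 0.12; limma, adjusted p = 0.183) with weights and 0.22 (limma, adjusted p = 0.803) without. With 1 library left out it ran from 0.20 without Cre- 1 (limma, adjusted p = 0.925) to 0.52 without BMAL1 aKO 5 (limma, adjusted p = 0.0844). In that last fit Rnase4 was the 1 microglial gene called, against 0.223% of all genes called higher (28 of 12572). Rnase4 shares 219 exonic bases with Ang on the same strand. Olfml3, a secreted glycoprotein, and Hpgds, the prostaglandin D synthase of microglia, had log2 fold changes of -0.02 and -0.05 and were not called.

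The receptors Mertk and Axl, which recognise dying cells and are also expressed outside microglia, were not called. Mertk was at 57.0, 74.6, 60.1, 61.7 and 51.9 CPM in BMAL1 aKO 1 to 5, against 63.3, 47.3, 54.9, 59.2 and 67.5 CPM in Cre- 1 to 5. Axl, which rises in activated microglia, was at 33.5, 46.0, 35.1, 29.5 and 28.1 CPM in BMAL1 aKO 1 to 5, against 35.1, 29.5, 57.2, 47.7 and 33.1 CPM in Cre- 1 to 5. The groups of both overlapped, with log2 fold changes of -0.06 for Mertk and -0.09 for Axl.

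Tgfbr1, the receptor chain for the TGF-beta signal that keeps microglia homeostatic, was at 24.9, 31.5, 31.1, 33.3 and 23.1 CPM in BMAL1 aKO 1 to 5, against 27.8, 31.3, 27.2, 26.9 and 28.4 CPM in Cre- 1 to 5. Here the BMAL1 aKO libraries spread more widely than the Cre- libraries, on both sides of them. Tgfbr1 differed by 0.05 on the log2 scale (95% interval -0.15 to 0.24, limma).

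Irf8, a transcription factor of the myeloid lineage that acts with PU.1, was at 4.5, 5.27, 2.97, 4.28 and 4.77 CPM in BMAL1 aKO 1 to 5, against 4.24, 2.52, 6.15, 4.83 and 3.74 CPM in Cre- 1 to 5. It was the least expressed of the 35 per kilobase of exon, at a median of 0.623 CPM per kb, where Sparc was highest at 48.2, followed by Lgmn at 33.6, C1qb at 26.5, C1qa at 20.6 and P2ry12 at 17.5. The log2 fold change of Irf8 was -0.01 (95% interval -0.33 to 0.31, limma).

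Because PU.1 is the lineage factor of these cells and its own gene was not in the table, the promoters of the list were searched for the core of its site, GAGGAAGT, on both strands. Sequence came from RefSeq (GRCm38.p6), as 250 bases before to 50 after each start. The motif was found in 5 of 33 promoters of 28 listed genes (15.2%), which belong to C1qc, Cd53, Cyth4, Hpgds and Inpp5d, against 2.66% of the 12601 promoters of genes in the table. A match is a description of these letters and not of binding, and the 5 genes, none of them called, had weighted log2 fold changes of -0.05 (Hpgds) to 0.16 (C1qc). In 3 of them the motif lay upstream of the start, and the 200 bases before the start are shown for these, in the gene's own direction, with the motif in capitals. They are Inpp5d (chr1:87620112-87620311, plus strand, motif 20 bases before the start), Hpgds (chr6:65144731-65144930, minus strand, 49 bases before) and C1qc (chr4:136892915-136893114, minus strand, 195 bases before and on the other strand).
Inpp5d: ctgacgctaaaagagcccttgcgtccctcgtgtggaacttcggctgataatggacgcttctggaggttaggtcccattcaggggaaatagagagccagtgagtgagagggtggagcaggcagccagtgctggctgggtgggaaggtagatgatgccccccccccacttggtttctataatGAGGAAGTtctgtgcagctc
Hpgds: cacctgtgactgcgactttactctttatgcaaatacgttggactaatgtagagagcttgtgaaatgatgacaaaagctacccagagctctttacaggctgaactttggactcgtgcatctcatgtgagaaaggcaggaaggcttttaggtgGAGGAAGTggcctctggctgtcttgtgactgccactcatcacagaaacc
C1qc: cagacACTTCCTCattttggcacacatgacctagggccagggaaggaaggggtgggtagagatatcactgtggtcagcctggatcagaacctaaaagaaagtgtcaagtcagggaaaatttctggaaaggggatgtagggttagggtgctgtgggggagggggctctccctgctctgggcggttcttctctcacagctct

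The libraries differed from each other more than the groups did. Levels went with transcript base composition in many of them, most steeply in Cre- 2, 3 and 4. Cre- 3 was the highest library for 21 of the 35 genes and the lowest for 4. Cre- 2 was the lowest library for 11 and Cre- 5 for 9. Homeostatic genes of similar known role went opposite ways in the same library: Tmem119 was at 0.591 times P2ry12 in Cre- 3 and 0.176 times in Cre- 2, against 0.208 to 0.318 times in the BMAL1 aKO libraries. Csf1r was 3.75 times P2ry12 in Cre- 3 and 1.23 times in Cre- 2, against 1.43 to 1.93 times in BMAL1 aKO. The ratio of C1qa to Tyrobp was 5.49 in Cre- 3 and 6.13 in Cre- 4, against 1.46 to 3.17 in BMAL1 aKO. In this last pair C1qa has 59.5% GC and Tyrobp 54.8%. The log2 ratio of Tyrobp to the median of the other 9 libraries was -0.23 in Cre- 3 and -0.68 in Cre- 4. That of C1qa was 0.97 in Cre- 3 and 0.66 in Cre- 4. The cause was not tested. All of these pairs were chosen after their values were seen.

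**Figure D4:**
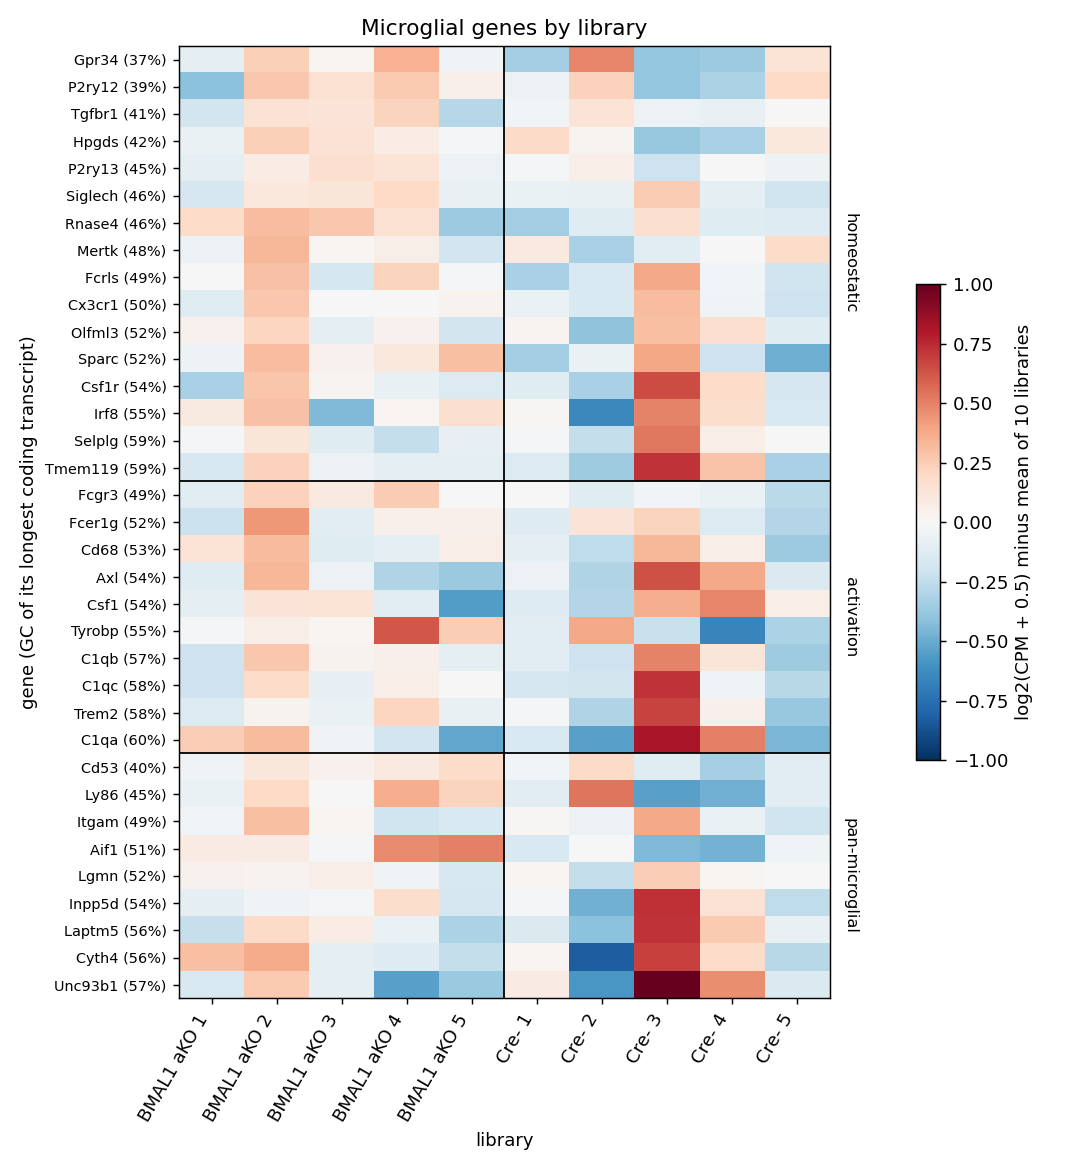
Deviation of each microglial gene from its mean over the 10 libraries, as log2(CPM + 0.5), with BMAL1 aKO libraries on the left and Cre- libraries on the right; rows are grouped by class and ordered by the GC of the longest coding transcript, and colours stop at -1 and 1. In Cre- 3 the colour turns from blue for AT-rich genes such as Gpr34 (37.1% GC) to red for GC-rich genes such as Tmem119 (59.1%), and in Cre- 2 the other way.

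The level of each gene in a library was set against the median of the other 9 libraries. Of the 18 genes in the upper 2 of 5 equal classes of transcript GC (52.4 to 59.5%), 17 were above the others in Cre- 3 and 17 were below in Cre- 2. Of the 10 genes in the lower 2 classes (37.1 to 48.1%), 8 were below in Cre- 3 and 9 below in Cre- 4. Across the 35 genes, this ratio correlated with GC at r = 0.796 in Cre- 3, 0.656 in Cre- 4 and -0.644 in Cre- 2. It did so at r = -0.477 in Cre- 5, 0.217 in Cre- 1 and from -0.428 to 0.304 in BMAL1 aKO. The genes share each library and its depth, so these r are descriptions.

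Over the whole table the slope had the same sign in every library but Cre- 1. Across 12021 genes r was 0.604 in Cre- 3, 0.518 in Cre- 4, -0.539 in Cre- 2 and -0.36 in Cre- 5. It was -0.112 in Cre- 1 and ran from -0.323 to 0.378 in BMAL1 aKO. In Cre- 3 the median log2 ratio was -0.26 in the lowest of the 5 GC classes and 0.73 in the highest. Homeostatic genes had a median GC of 48.3%, activation genes 54.6% and all genes 50.1%, so that the 2 classes differ in the property that the libraries differed in. The fits were repeated after a correction, chosen after the data were seen, that took out each library's median deviation in 20 bins of GC. The part of GC in the order of the classes was not tested.

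**Figure D5:**
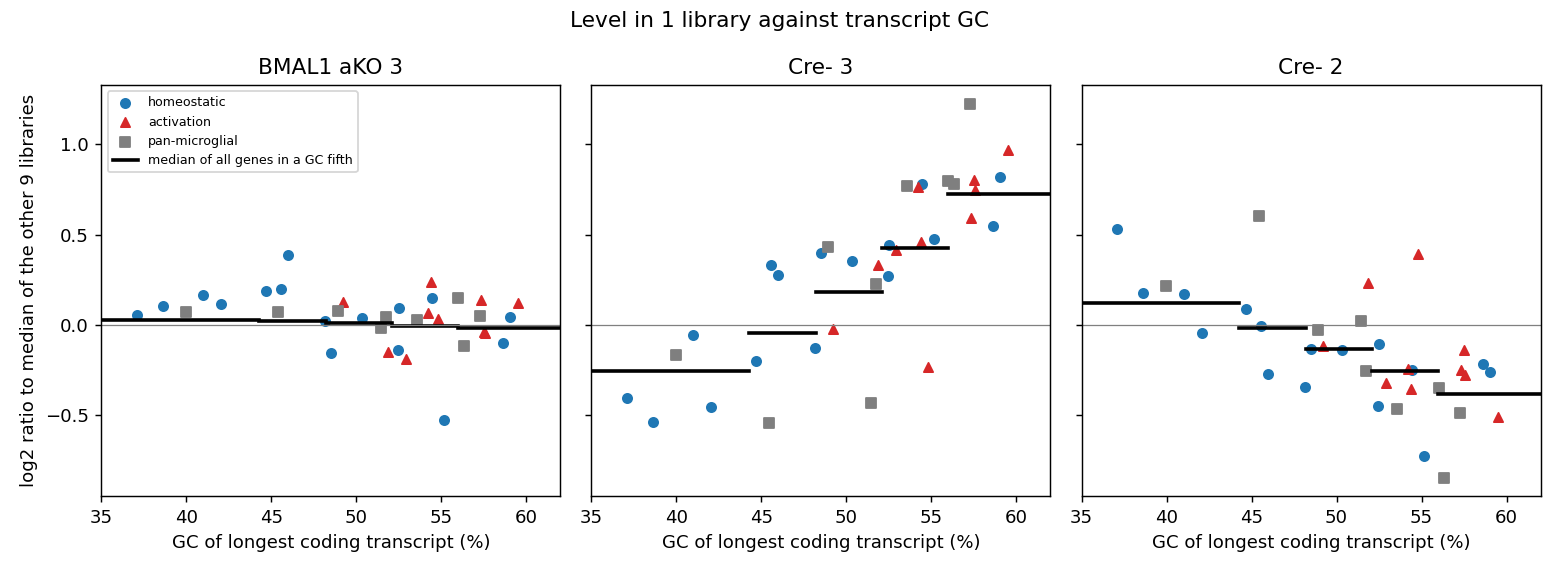
Log2 ratio of each microglial gene in 1 library to the median of the other 9 libraries, against the GC of its longest coding transcript, in BMAL1 aKO 3, Cre- 3 and Cre- 2; symbols give the class and black lines the median of all genes in each of 5 GC classes, cut at the edges of the plot. The genes follow the lines upward in Cre- 3 (r = 0.796) and downward in Cre- 2 (r = -0.644), and in BMAL1 aKO 3 most stay near 0, with Irf8 the lowest.

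After the correction the spread between libraries narrowed for 29 of the 35 genes and widened for 6. The median of the highest over the lowest library was 1.5, against 1.82 before. The correction takes out deviations found in these same libraries, so narrowing is in part built in. The share of all genes that narrowed was not counted. Tmem119 then ran from 9.77 to 12.3 CPM in BMAL1 aKO and from 9.80 to 11.6 CPM in Cre-. Aif1 was among the 6 that widened, and after correction ran from 3.74 to 5.86 CPM in BMAL1 aKO and from 2.13 to 4.33 CPM in Cre-. With the correction 31 of 35 genes were above 0 in the weighted fit and 31 without weights. The median log2 fold change was 0.13 for homeostatic and 0.20 for activation genes with weights, and 0.11 and 0.15 without, beside 0.00 over all genes. Sparc was the 1 gene called with weights (limma, adjusted p = 0.0885) and none was called without them.

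Other lists place these values. Of 55 further microglial genes, 38 were measured and none was called in the weighted, unweighted or voomWithQualityWeights fit, with 5, 1 and 4 at an unadjusted p under 0.05, all 5 of the weighted fit higher. Of all genes, 16.8% were under that limit in either direction in the weighted fit, 4.79% in the unweighted fit and 10.4% with voomWithQualityWeights. Those with the smallest p were the integrin chain Itgb2 (log2 fold change 0.40; limma, adjusted p = 0.182) and the inhibitory receptor Lair1 (0.32; limma, adjusted p = 0.183). Of 31 genes of disease-associated microglia, 24 were measured and none was called in the 3 fits, with 9 at an unadjusted p under 0.05 with weights, all higher (6.82% of all genes were higher at that limit), 3 without and 6 with voomWithQualityWeights. Lpl, a lipoprotein lipase, had a log2 fold change of 0.34 (limma, adjusted p = 0.140) and Apoe, an apolipoprotein that astrocytes make in large amounts, 0.42 (limma, adjusted p = 0.175).

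Their summed level was 4250 to 4905 CPM in BMAL1 aKO and 3671 to 4052 CPM in Cre-, with no overlap. Apoe and the ferritin gene Fth1 made up 62.1 to 67.1% of the sum in BMAL1 aKO and 54.3 to 60.5% in Cre-. Without these 2 genes the sum was 1609 to 1694 CPM in BMAL1 aKO and 1576 to 1816 CPM in Cre-, and the groups overlapped. Of 17 ligands and partners of microglial receptors, 15 were measured and none was called in the 3 fits, with 4, 1 and 3 at an unadjusted p under 0.05. The smallest p were those of Csf2ra, a GM-CSF receptor chain (log2 fold change 0.38; limma, adjusted p = 0.176), and Cd47, which signals against phagocytosis (-0.15; limma, adjusted p = 0.222).

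Of 22 inflammatory and interferon genes only 7 were in the table, and none was called in the 3 fits, with 2, 1 and 3 at an unadjusted p under 0.05. Ifitm3, an interferon-induced membrane protein, was nearest to the threshold, at 7.15, 6.15, 6.67, 7.61 and 7.67 CPM in BMAL1 aKO 1 to 5, against 5.03, 5.95, 4.26, 4.37 and 5.25 CPM in Cre- 1 to 5. Its groups did not overlap, and its log2 fold change was 0.45 (limma, adjusted p = 0.103). Il18, a cytokine of the inflammasome, had a log2 fold change of 0.44 (limma, adjusted p = 0.176).

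Perivascular and meningeal macrophages share many genes with microglia. Of 16 of their markers, Mrc1, Cd163 and Stab1 were in the table, with a summed level of 17.2 to 24.2 CPM in BMAL1 aKO and 14.6 to 39.6 CPM in Cre-, and none was called in the 3 fits or had an unadjusted p under 0.05. Of 15 markers of monocytes, neutrophils, lymphocytes and blood, only the 3 haemoglobin genes were in the table, and none was called or under that limit. Of 12 oligodendrocyte, 6 precursor, 13 endothelial and mural and 12 neuronal markers, all were measured and none was called in the 3 fits. At an unadjusted p under 0.05 there were 2, 1, 0 and 1 of these with weights, 0 of each without, and 4, 2, 1 and 1 with voomWithQualityWeights. Of 6 markers of dividing cells only Mki67 was in the table, at 3.22 to 4.21 CPM in BMAL1 aKO and 2.20 to 5.44 CPM in Cre-, and it was not called (limma, adjusted p = 0.846).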

How the data were processed

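RNA of cerebral cortex was converted to cDNA with the SMARTer Ultra Low kit from RNA with a RIN above 8 per the labels, a kit that does not mark strand. The authors aligned reads with STAR 2.5.1a to GRCm38 (Ensembl annotation), used featureCounts 1.4.6-p5 for counting and deposited CPM for each gene and library. The deposited CPM hold no TMM scaling, since each column summed to 99.12 to 99.27% of the total that unscaled CPM would give. Every value was a whole multiple, within 0.01 read, of the library's smallest step, from which total reads were taken. Pairs of libraries of 1 group differed far beyond sampling noise (chi-square per degree of freedom 12.9 to 447.6), and none were counted as 1.

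The fit was limma 3.58.1 in R 4.3.3 on log2(CPM + 0.5), so that fold changes of low genes are understated, with arrayWeights, a variance trend, genes above 1 CPM in at least 4 libraries and Benjamini-Hochberg adjustment over all genes, with a threshold of 0.1. Fits without weights, with voomWithQualityWeights (the study's test) on the whole reads with TMM scaling, with other pseudocounts, filters, scalings, covariates and a threshold of 0.05, and without each library in turn were alternatives. The fit was tested on simulated data with independent noise and no GC slope, which does not cover the GC pattern of these libraries. P-values without weights measure the spread between these mice. Those with weights measure it after some mice, such as Cre- 3, were counted for little, with weights estimated from the same libraries. An unadjusted p under 0.05 was reached by 16.8% of all genes with weights and 4.79% without (limma). Transcript GC, lengths and overlaps came from GENCODE M21 (GRCm38), with which 12556 gene names and all 35 members matched. Values in every library are given for members called in any of the 3 fits and, per role, for the 2 with the smallest p and the 1 with the highest median CPM, besides Cx3cr1. Other members have a range, a fold change or a count. Genes named per list are those called or else the 2 with the smallest p. Members and lists were chosen with earlier results of these data known.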

Additional observations from a re-analysis of the deposited data

Results flagged for a closer look

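Within each group of 5, the highest or lowest library of each of the 35 genes was compared with its nearest neighbour, over 70 groups, and in 5 a library stood apart by more than 0.71 of the group's range (Dixon's limit). Chance alone marks about 1 in 20 groups. In Cre- 3, Cx3cr1 was at 55.0 CPM with the next Cre- library at 42.9, C1qc at 39.7 CPM with the next at 23.2, and Siglech at 14.4 CPM with the next at 11.4. In BMAL1 aKO 2, Tmem119 was at 13.1 CPM with the next BMAL1 aKO library at 10.7. In BMAL1 aKO 5, Rnase4 was at 6.27 CPM with the next at 9.17.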

How the results depend on the processing

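The number of genes called moved most. It was 42 with all libraries and weights, and 4 without weights, 4 without weights with TMM scaling, 68 with TMM scaling, 65 with quantile normalization, 22 with the Xist covariate, 11 with the GC correction and no weights, 174 with the GC correction and without BMAL1 aKO 3, and 20 at a threshold of 0.05. Microglial genes called higher were 0, not 1, without weights, without weights with TMM scaling, with the Xist covariate, with the GC correction and no weights, and at the threshold of 0.05. With 1 library left out, 1 to 844 genes and 0 to 3 microglial genes were called, with 1 gene without Cre- 1, 19 without Cre- 3, 15 without Cre- 4, 5 without Cre- 5, 23 without BMAL1 aKO 1, 844 without BMAL1 aKO 3 and 10 without BMAL1 aKO 4, and no microglial gene without Cre- 1, 4 or 5 or BMAL1 aKO 4. The weights did not converge without Cre- 1 or Cre- 5. The deviations of same-numbered libraries had r from -0.63 to 0.36 over 5 pairs, which cannot exclude a pairing by number. A fit with the replicate block called 7 genes and 0 microglial genes. The medians of homeostatic and activation genes stayed above 0 in every alternative. edgeR's quasi-likelihood test on whole reads was not run. The lowest count of a microglial gene in a library was 55 reads. The part of sampling noise in the spread of the lowest genes was not measured.

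Of 908 fold changes of single genes under alternatives, 110 changed sign, over 19 genes, none of them called, and 16 genes kept their sign. The cause was not tested. With the replicate block, log2 fold changes of the other sign were P2ry12 -0.039, Csf1r -0.068, C1qa -0.052, Laptm5 -0.20, Irf8 0.15, Tgfbr1 -0.13. Without weights, log2 fold changes of the other sign were Tmem119 -0.074, Csf1r -0.093, C1qa -0.071, C1qc -0.017, Trem2 -0.013, Laptm5 -0.14, Olfml3 0.010, Mertk 0.063, Inpp5d -0.052, Irf8 0.046, Hpgds 0.15. Without weights and with TMM scaling, log2 fold changes of the other sign were Tmem119 -0.025, Csf1r -0.042, C1qa -0.021, Laptm5 -0.089, Itgam 0.025, Olfml3 0.060, Mertk 0.11, Lgmn 0.029, Inpp5d -0.0021, Irf8 0.094, Hpgds 0.20. With the GC correction and no weights, log2 fold changes of the other sign were Laptm5 -0.0084, Itgam 0.023, Selplg 0.023, Olfml3 0.090, Mertk 0.10, Lgmn 0.049, Irf8 0.15, Hpgds 0.17. With TMM scaling, log2 fold changes of the other sign were Itgam 0.037, Olfml3 0.022, Lgmn 0.022, Irf8 0.021, Csf1 0.022. With median-of-ratios scaling, log2 fold changes of the other sign were Itgam 0.032, Olfml3 0.017, Lgmn 0.017, Irf8 0.017, Csf1 0.016. With quantile normalization, log2 fold changes of the other sign were Itgam 0.017, Lgmn 0.027. With voomWithQualityWeights, log2 fold changes of the other sign were Itgam 0.064, Olfml3 0.051, Lgmn 0.023, Irf8 0.071, Hpgds 0.015. With the Xist covariate, log2 fold changes of the other sign were Itgam 0.023, Olfml3 0.010, Mertk 0.0088, Lgmn 0.029, Hpgds 0.0033, Csf1 0.082. With the GC correction, log2 fold changes of the other sign were Itgam 0.058, Olfml3 0.047, Mertk 0.012, Lgmn 0.028, Irf8 0.067, Hpgds 0.051. With the GC correction and without BMAL1 aKO 3, log2 fold changes of the other sign were Itgam 0.027, Olfml3 0.092, Mertk 0.023, Lgmn 0.0087, Irf8 0.23, Hpgds 0.034. With 1 library left out, values ran for Tmem119 -0.044 to 0.16, Csf1r -0.021 to 0.11, C1qa -0.12 to 0.22, Trem2 -0.019 to 0.22, Laptm5 -0.056 to 0.13, Itgam -0.083 to 0.081, Olfml3 -0.066 to 0.059, Mertk -0.13 to 0.0015, Lgmn -0.064 to 0.023, Inpp5d -0.049 to 0.13, Irf8 -0.084 to 0.15, Hpgds -0.089 to 0.10, Cyth4 -0.061 to 0.19, Axl -0.20 to 0.012, Csf1 -0.22 to 0.11.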
